A study of Mus musculus with 6 samples.

Results

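The 10 genes described here belong to the response of cells to aryl hydrocarbons and other foreign chemicals, and they were chosen by symbol from the 56496 genes of the deposited table. They are the receptor Ahr, its feedback inhibitors Ahrr and Tiparp, the monooxygenases Cyp1a1 and Cyp1b1, the electron donor Por, the detoxifying enzymes Ephx1 and Nqo1, and the efflux pumps Abcb1a and Abcc1. Their transcript TPM (an abundance scaled to transcript length and to a fixed total in each library) were summed per gene. All 10 symbols were found. The RNA-seq libraries were made from bone marrow of female BALB/c mice whose 4T1 tumour, a mouse mammary carcinoma, had been resected. The Onway group was 3 libraries labelled day 14, for which Onway was gavaged over 2 weeks, and the Control group was 3 libraries from mice not given it, labelled day 0. Surgery and the 4T1 tumour are common to both groups, and the effect of the agent and that of the labelled day cannot be told apart. The sources used here do not give the contents of Onway. The labels' extraction text, the same for both groups, also carries lines on feeding cells with dexamethasone, isobutylmethylxanthine and insulin, and whether these marrow cells were cultured is not stated. Whether libraries come from separate mice is not stated, and p-values here cover only library-to-library spread, which may be technical.

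The aryl hydrocarbon receptor is a ligand-activated transcription factor that waits in the cytoplasm bound to Hsp90. When it binds a ligand such as a dioxin, a combustion product or a plant indole, it enters the nucleus, pairs with Arnt and binds DNA at sites with the core GCGTG, the xenobiotic response element. Cyp1a1 and Cyp1b1 are its classical targets, and Ahrr and Tiparp are induced targets that shut the receptor down again. Nqo1 answers both to this receptor and to NRF2, the sensor of electrophiles. The comparison asks whether an agent given by mouth left a mark on these genes in the marrow, and which of them moved with stromal cells.

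The libraries carried the marker genes of marrow. Summed neutrophil markers reached 107600 to 191900 TPM in Onway and 98310 to 213400 TPM in Control, while 8 hepatocyte markers summed to 2.89 to 20.02 TPM in Onway and 4.42 to 12.2 TPM in Control. The haemoglobin share of TPM varied within both groups. It was 13.3%, 9.38% and 33.9% in Onway 1, Onway 2 and Onway 3 and 26.6%, 11.6% and 18.3% in Control 4, Control 5 and Control 6, so Onway 3 and Control 4 stood apart. The number of reads behind these values is unknown.

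Of the 10 genes, Cyp1b1 was lower in Onway and none was higher. Cyp1b1 hydroxylates steroids, retinoids and polycyclic hydrocarbons, and averaged 0.280 ± 0.036 TPM in Onway and 6.98 ± 2.07 TPM in Control (SD, n = 3 each). The receptor Ahr itself, at 1.31 ± 0.396 TPM in Onway and 0.810 ± 0.052 TPM in Control, did not pass the test. The most inducible target, Cyp1a1, stayed below 0.1 TPM in every library. In a limma fit of log2(TPM + 1) over the 14192 genes averaging 1 TPM or more, 7 of the 10 genes were tested and 1 fell at a Benjamini-Hochberg adjusted p under 0.05. Over all tested genes 2.99% fell and 0.233% rose (3.22% in either direction). Cyp1b1 reached 1 TPM in the Control libraries only, so it entered the fit through the group where it was high. The median log2 fold change of the 7 was −0.04, against 0.03 over all tested genes.

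The sequences just upstream of a RefSeq start of the target genes are shown because each holds the receptor's core motif, whichever way its gene behaved. RefSeq promoters (GRCm38.p6), from 250 bases before to 50 bases after a gene's start, were matched for 8 of the 10 genes, and the feedback and monooxygenase genes among them are printed 5′ to 3′ along the gene. Capitals mark GCGTG, written CACGC where it lies on the opposite strand.
Cyp1b1, chr17:79715012-79715311, minus strand: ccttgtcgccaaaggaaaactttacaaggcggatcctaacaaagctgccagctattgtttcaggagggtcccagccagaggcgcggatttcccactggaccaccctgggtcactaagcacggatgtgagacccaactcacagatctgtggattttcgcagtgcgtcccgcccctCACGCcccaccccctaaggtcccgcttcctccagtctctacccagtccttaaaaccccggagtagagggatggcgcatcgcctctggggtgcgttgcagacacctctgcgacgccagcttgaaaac
Cyp1a1, chr9:57697363-57697662, plus strand: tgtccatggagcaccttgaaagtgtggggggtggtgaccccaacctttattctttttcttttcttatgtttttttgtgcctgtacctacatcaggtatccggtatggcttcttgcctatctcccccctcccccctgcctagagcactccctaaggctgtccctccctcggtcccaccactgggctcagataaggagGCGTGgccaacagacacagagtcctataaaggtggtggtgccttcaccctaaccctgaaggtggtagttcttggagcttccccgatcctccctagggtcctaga
Tiparp, chr3:65528197-65528496, plus strand: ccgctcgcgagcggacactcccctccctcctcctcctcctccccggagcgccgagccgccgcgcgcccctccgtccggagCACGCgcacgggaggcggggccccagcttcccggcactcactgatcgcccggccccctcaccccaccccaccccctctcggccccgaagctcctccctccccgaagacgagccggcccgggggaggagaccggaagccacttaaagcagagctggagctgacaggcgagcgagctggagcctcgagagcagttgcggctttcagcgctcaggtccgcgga
Ahrr, chr13:74292282-74292581, minus strand: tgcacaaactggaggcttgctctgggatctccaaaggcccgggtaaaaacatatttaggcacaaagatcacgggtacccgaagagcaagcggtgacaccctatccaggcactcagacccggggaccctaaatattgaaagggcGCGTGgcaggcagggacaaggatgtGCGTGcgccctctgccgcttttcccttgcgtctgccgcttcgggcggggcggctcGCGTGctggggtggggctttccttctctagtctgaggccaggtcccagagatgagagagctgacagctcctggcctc
GCGTG was searched on both strands and lay in 32.4% of 32851 promoters of that length. The promoter of Cyp1b1 held it once, on the opposite strand, beginning 76 bases before the start. Cyp1a1 held it once, 54 bases before the start, Tiparp once on the opposite strand, 170 bases before, and Ahrr 3 times, 107, 82 and 27 bases before. The longer form TNGCGTG contains that core and was in 5.07% of promoters. Of the 8 matched genes Ahrr had it, overlapping the core nearest its start. The core was also found 3 times in the window of Por and was not in those of Nqo1, Ephx1 and Abcb1a. TGACNNNGC, the NRF2-type antioxidant element, was in 12.4% of promoters and in the window matched to Abcb1a. That window, chr5:8566841-8567140, lies outside the annotated span of Abcb1a (chr5:8660077-8748575, GRCm38). The windows of Cyp1a1 and Por begin at 57697363 and 135688895, inside annotated spans that begin at 57687928 and 135670033. That of Ephx1, on the minus strand, ends at 181017819, inside a span that ends at 181020904. Whether the windows of these genes and of Abcb1a are the promoters of the transcripts measured here is not known.

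Ahr, the receptor, lies on chromosome 12, 35497974 to 35535038 (GRCm38, minus strand). It was at 1.33, 1.69 and 0.90 TPM in Onway 1, Onway 2 and Onway 3, against 0.78, 0.78 and 0.87 TPM in Control 4, Control 5 and Control 6. All Onway libraries were above all Control libraries, by little in Onway 3, a pattern that 6.95% of all tested genes showed, while 11.5% showed the opposite one. The groups did not overlap in either direction for 18.4% of all tested genes, and 2 of the 7 tested genes here, Ahr and Cyp1b1, were among them. The log2 fold change of Ahr was 0.34 (SE 0.23, 95% interval −0.20 to 0.87, limma adjusted p = 0.60). Its mean over the libraries was 1.06 TPM, at the edge of the filter, and the added 1 TPM in the log scale understates changes at such levels. The authors' deposited table also holds group means, and these contain a further value per group, since each is a mean of 4 values. The authors' means of Ahr were 1.28 TPM for Onway and 0.735 TPM for Control, which leaves 1.20 TPM for the further Onway value and 0.51 TPM for the further Control value.

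The inhibitors of the receptor gave no call. Tiparp, an ADP-ribosyltransferase that marks the receptor for turnover, was at 8.85, 9.18 and 4.28 TPM in Onway 1, Onway 2 and Onway 3, against 4.49, 7.31 and 6.14 TPM in Control 4, Control 5 and Control 6. The groups overlapped, with the lowest values in Onway 3 and Control 4 (log2 fold change 0.23, SE 0.30, 95% interval −0.47 to 0.93, limma adjusted p = 0.80). Ahrr, the repressor that competes with Ahr for Arnt, lies on chromosome 13, 74211118 to 74292331 (GRCm38), and was near absent. It was at 0.51, 0.13 and 0.05 TPM in Onway 1, Onway 2 and Onway 3, against 0.14, 0.10 and 0.06 TPM in Control 4, Control 5 and Control 6. Onway 1 held the highest value. Of that, 0.42 TPM came from a transcript of 319 bases that was at 0 in the other libraries. Without Onway 1 the difference of means, Onway minus Control, was −0.01 TPM, against 0.13 TPM with it. Ahrr was under the filter, and in a fit with no filter its log2 fold change was 0.14 (SE 0.14, adjusted p = 0.70).

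Of the monooxygenases, Cyp1b1 fell and Cyp1a1 was too low to compare. Cyp1a1, on chromosome 9, 57687928 to 57703824 (GRCm38), was at 0.08, 0.09 and 0.03 TPM in Onway 1, Onway 2 and Onway 3 and at 0.05, 0.02 and 0.03 TPM in Control 4, Control 5 and Control 6. With no filter the log2 fold change was 0.05 (SE 0.03, limma adjusted p = 0.67). Its close relative Cyp1a2, a liver enzyme, was listed at 0 in all 6 libraries. Cyp1b1, on chromosome 17, 79701537 to 79715061 (GRCm38, minus strand), was at 0.24, 0.29 and 0.31 TPM in Onway 1, Onway 2 and Onway 3, against 7.05, 4.87 and 9.01 TPM in Control 4, Control 5 and Control 6. The groups were far apart and the Onway libraries lay close together. The Control mean was 24.9 times the Onway mean, and the log2 fold change of TPM + 1 was −2.61 (SE 0.24, 95% interval −3.17 to −2.05, limma adjusted p = 0.0014, and 0.0053 with no filter). Both main transcripts showed the difference. The longer, of 5128 bases, was at 0.02 to 0.20 TPM in Onway and 2.66 to 5.73 TPM in Control, and the shorter, of 3398 bases, at 0.11 to 0.22 TPM in Onway and 2.21 to 3.15 TPM in Control. The authors' deposited table gives Cyp1b1 means of 0.415 TPM for Onway and 5.52 TPM for Control, and these leave 0.82 TPM for the further Onway value and 1.15 TPM for the further Control value. The large difference was thus in the 3 libraries of each group and not between the further values.

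**Figure D1:**
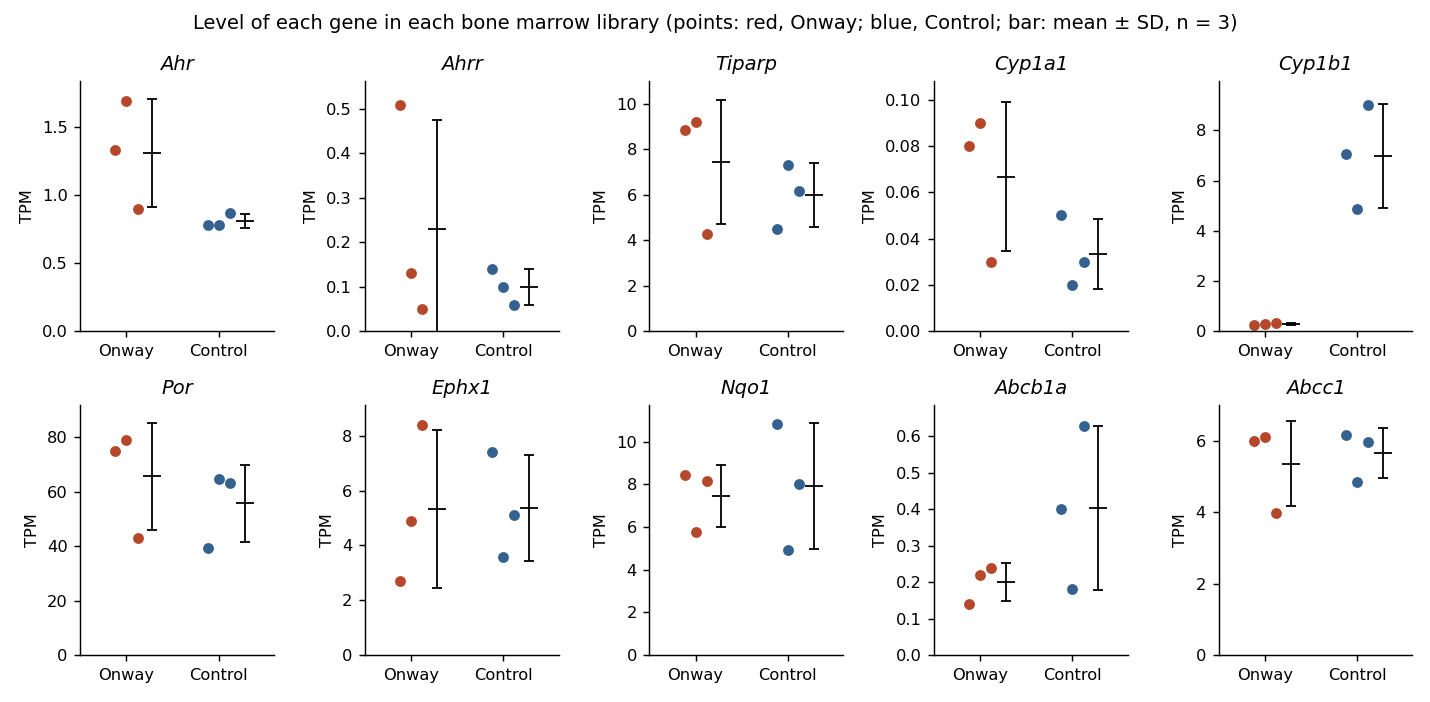
TPM of each of the 10 genes (vertical axes, linear, from 0) in the 3 Onway and 3 Control libraries (points), with mean ± SD beside them (n = 3; the lower bar of Ahrr is clipped at 0). Cyp1b1 sits at 0.24 to 0.31 TPM in Onway and 4.87 to 9.01 TPM in Control, the groups of Ahr touch closely without overlap, and those of the other 8 genes overlap.

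Cyp1b1 is known from mesenchymal and vascular cells, and markers of those cells were lower in the same libraries. Of 20 stromal and fibroblast markers 18 were tested and 15 fell, against 2.99% of all tested genes. Several of the 15, Pdgfra and Lepr among them, averaged under 1 TPM in Onway and entered the fit through the Control group. The median log2 fold change of the 18 was −2.85, and that of Cyp1b1 was less negative than that of 10 of them and more negative than that of 8. These are changes of TPM + 1, a scale that shrinks the changes of low genes most. The place of Cyp1b1 therefore depends on its level too and is not its place by fold change of TPM. In a bulk sample, fewer cells of a type and less RNA per cell cannot be told apart. In Onway 1, Onway 2 and Onway 3 the summed stromal level was 219, 242 and 145 TPM, against 934, 1177 and 575 TPM in Control 4, Control 5 and Control 6. Among its defining genes Pdgfra was at 0.10 to 0.22 TPM in Onway and 2.68 to 4.51 TPM in Control, Lepr at 0.58 to 0.85 TPM in Onway and 4.09 to 9.61 TPM in Control, and Cxcl12 at 17.4 to 32.8 TPM in Onway and 117 to 276 TPM in Control. Fn1 ran the other way, at 84.8 to 177 TPM in Onway and 52.6 to 75.2 TPM in Control (log2 fold change 1.09, limma adjusted p = 0.15). Serpinf1 overlapped, at 7.11 to 13.9 TPM in Onway and 8.96 to 39.3 TPM in Control.

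Marker lists of other cell types were lower in the same libraries too. The counts below stand beside 2.99% of all tested genes that fell. In several of these lists some markers averaged under 1 TPM in Onway and entered the fit through the Control group. Endothelial markers summed to 45.7 to 52.7 TPM in Onway and 110 to 144 TPM in Control, with 10 of 15 tested lower and none higher. Bone cell markers summed to 530 to 979 TPM in Onway and 1163 to 1524 TPM in Control (11 of 12 lower). Mmp9, a gelatinase, made up 87.7% to 94.5% of that sum in Onway and 29.1% to 45.1% in Control, and without it, a choice made after its values were seen, the sums were 54.4 to 68.5 TPM in Onway and 638 to 1080 TPM in Control. Skeletal muscle markers summed to 24.1 to 31.1 TPM in Onway and 803 to 5152 TPM in Control (13 of 15 lower). Fat cell markers summed to 16.1 to 32.4 TPM in Onway and 79.4 to 136 TPM in Control (1 of 5 lower). Megakaryocyte and platelet markers summed to 138 to 208 TPM in Onway and 2285 to 2576 TPM in Control (16 of 16 lower), and tissue macrophage markers to 226 to 253 TPM in Onway and 344 to 533 TPM in Control (1 of 14 lower). The further values in the authors' deposited means were 222 TPM for Onway and 195 TPM for Control over the stromal list, and 30.8 TPM for Onway and 28.2 TPM for Control over the muscle list. For the stromal and muscle lists, as for Cyp1b1, they were close together. The part of each cell type in the level of Cyp1b1 was not tested.

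**Figure D2:**
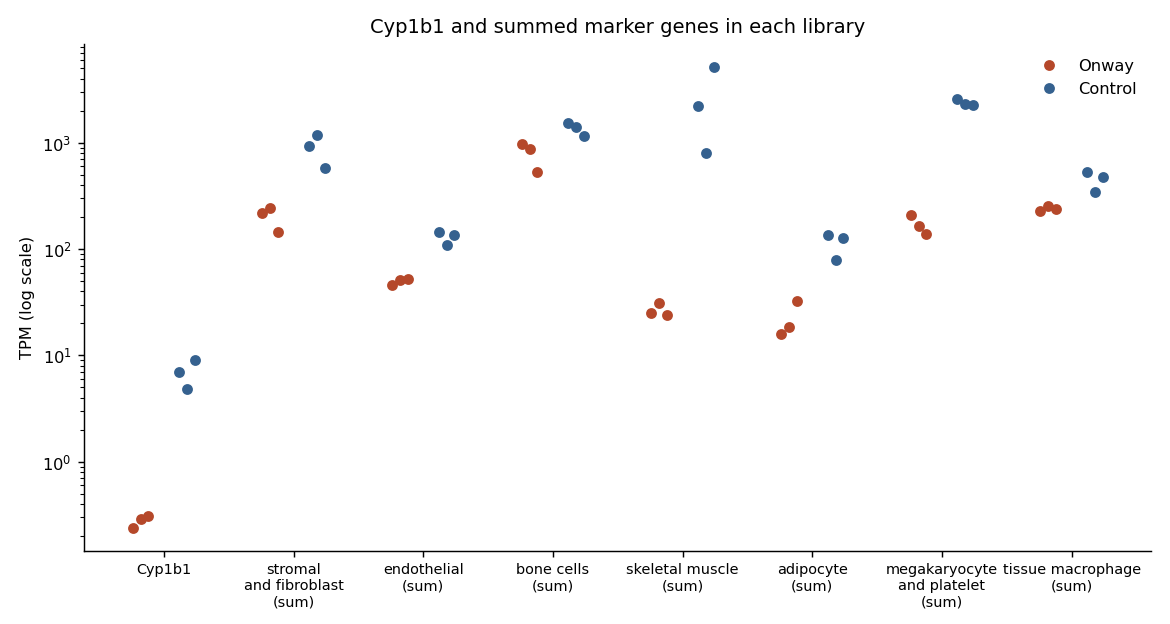
TPM of Cyp1b1 and summed TPM of 7 marker lists (vertical axis, log scale) in each library, with Onway points in red left of Control points in blue. In all 8 columns every Onway library lies below every Control library. Not drawn are the neutrophil, erythroid, B cell and hepatocyte lists, whose sums overlapped between groups. The T and NK cell list (lower sums in Onway) and the immediate early list (higher sums in Onway) are not drawn either.

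Set against stroma in the same library, Cyp1b1 alone of the 10 genes was lower per stromal RNA in all Onway libraries. It was at 1.10, 1.20 and 2.14 TPM per 1000 TPM of the stromal list in Onway 1, Onway 2 and Onway 3, and at 7.55, 4.14 and 15.7 in Control 4, Control 5 and Control 6. On the log2 scale the ratio averaged −9.03 ± 0.485 in Onway and −6.97 ± 0.956 in Control (exact two-sided permutation p = 0.1, the smallest that 20 assignments allow). Fn1, fibronectin, decided much of this, since it held 58.4% to 77.5% of the stromal TPM in Onway and 4.47% to 13.1% in Control. With Fn1 left out, a choice made after its values were seen, Cyp1b1 was at 4.87, 4.46 and 5.14 TPM per 1000 stromal TPM in Onway and at 8.12, 4.33 and 18.03 in Control. The groups then overlapped, and the difference of the log2 ratios was −0.42, against −2.06 with Fn1. With a pseudocount of 1 TPM in the ratio that difference was −0.49 (exact two-sided permutation p = 0.7). With the mean of log2 values over the list it was −0.83 (exact two-sided permutation p = 0.1). Ahr, Tiparp, Por, Abcc1, Nqo1, Ephx1, Ahrr and Cyp1a1 were the other way round, higher per stromal TPM in every Onway library. Por for example was at 342, 326 and 297 TPM per 1000 stromal TPM in Onway and 42.3, 55.0 and 110 in Control. The stromal sum itself averaged 202 TPM in Onway and 895 TPM in Control. A gene of unchanged TPM therefore comes out higher in Onway by this measure. Abcb1a overlapped, at 0.639 to 1.65 in Onway and 0.153 to 1.10 in Control.

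By mean absolute difference of the centred log2 profile over the 6 libraries, the genes most like Cyp1b1 were Ripor3 (0.12) and Myom1 (0.14). Ripor3 was at 0.30, 0.22 and 0.40 TPM in Onway 1, Onway 2 and Onway 3, against 7.75, 4.88 and 7.02 TPM in Control 4, Control 5 and Control 6. Myom1, which encodes myomesin of the muscle sarcomere, was at 1.01, 0.89 and 0.73 TPM in Onway and 13.1, 9.65 and 16.9 TPM in Control. Both were picked for their likeness to a gene that fell, so their difference between groups is a description with no test, and Ripor3 and Myom1 averaged under 1 TPM in Onway. With transcripts named MSTRG left out, the log2 fold change of Ripor3 was −1.55, against −2.51 with them.

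Por, Ephx1 and Nqo1 did not pass the test, and their intervals were wide. The lowest values of Por and the highest of Ephx1 were in the libraries richest in haemoglobin RNA. Por, the reductase that feeds electrons to all microsomal cytochrome P450s, was the most abundant of the 10 genes. It was at 75.02, 79.0 and 43.2 TPM in Onway 1, Onway 2 and Onway 3, against 39.5, 64.8 and 63.2 TPM in Control 4, Control 5 and Control 6. Its lowest values were in Onway 3 and Control 4, those same libraries, and the part of red cell content in this was not tested (log2 fold change 0.22, SE 0.30, 95% interval −0.47 to 0.91, limma adjusted p = 0.81). Rescaled without haemoglobin genes, Por was at 86.6, 87.2 and 65.3 TPM in Onway and 53.7, 73.3 and 77.4 TPM in Control, still overlapping. Ephx1, microsomal epoxide hydrolase, ran the other way across libraries, at 2.70, 4.89 and 8.40 TPM in Onway and 7.42, 3.59 and 5.11 TPM in Control. Its highest values were in Onway 3 and Control 4 (log2 fold change −0.07, SE 0.38, 95% interval −0.96 to 0.82, adjusted p = 0.96). Nqo1, a quinone reductase, was at 8.43, 5.76 and 8.14 TPM in Onway and 10.8, 4.91 and 8.0 TPM in Control. It was highest in Control 4 and lowest in Control 5, with the Onway libraries between them (log2 fold change −0.04, SE 0.28, 95% interval −0.70 to 0.62, adjusted p = 0.98).

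**Figure D3:**
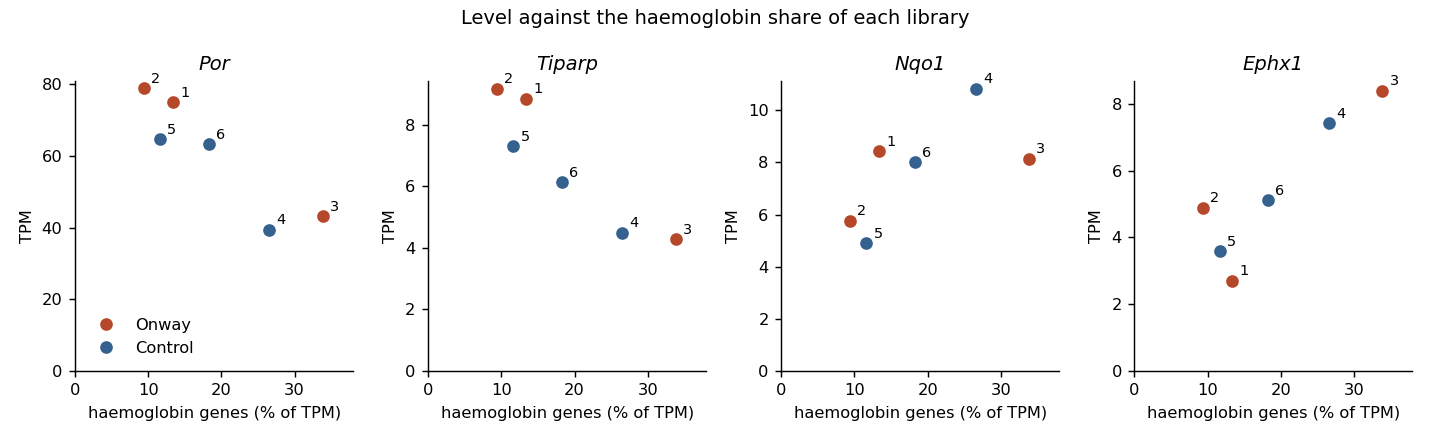
TPM of Por, Tiparp, Nqo1 and Ephx1 (vertical axes) against the percent of TPM from haemoglobin genes (horizontal axis) in each library, with Onway in red, Control in blue and replicate numbers beside the points. Onway 3 (33.9%) and Control 4 (26.6%) hold the lowest values of Por and Tiparp and the highest of Ephx1.

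The efflux pumps gave no call. Abcc1, which exports glutathione conjugates, was at 5.99, 6.10 and 3.99 TPM in Onway 1, Onway 2 and Onway 3, against 6.16, 4.85 and 5.97 TPM in Control 4, Control 5 and Control 6. The groups overlapped, and the interval of the log2 fold change was the narrowest of the 7 tested genes (−0.08, SE 0.21, 95% interval −0.57 to 0.41, limma adjusted p = 0.92). Abcb1a, a P-glycoprotein of the blood-brain barrier and gut, was at 0.14, 0.22 and 0.24 TPM in Onway and 0.40, 0.18 and 0.63 TPM in Control. Control 6 and Control 4 were highest and Control 5 lay among the Onway libraries. With no filter its log2 fold change was −0.21 (SE 0.14, adjusted p = 0.66). Its neighbour Abcb1b on chromosome 5 encodes the other mouse P-glycoprotein and was the more abundant, at 1.48, 2.26 and 1.26 TPM in Onway and 1.12, 1.87 and 1.95 TPM in Control (adjusted p = 0.99). The 2 genes are close copies whose reads may be split between them. The log2 ratio of Abcb1a to Abcb1b averaged −2.53 ± 0.469 in Onway and −1.86 ± 0.830 in Control, a difference of −0.67 (exact two-sided permutation p = 0.3).

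TPM is scaled to length, so levels can be ordered between genes. By the mean over 6 libraries Por stood first at 60.8 TPM, with its lowest library above the highest of any other of the 10. Nqo1 (7.68 TPM), Tiparp (6.71 TPM), Abcc1 (5.51 TPM) and Ephx1 (5.35 TPM) followed with ranges that overlapped one another. Cyp1b1 averaged 3.63 TPM over both groups, but stood below Ahr in Onway and between Nqo1 and Tiparp in Control. Ahr (1.06 TPM), Abcb1a (0.302 TPM), Ahrr (0.165 TPM) and Cyp1a1 (0.050 TPM) came last. The ranges of Ahr and Cyp1b1 overlapped over the 6 libraries, and those of Abcb1a and Ahrr overlapped, as did those of Ahrr and Cyp1a1.

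The wider xenobiotic machinery was read from 7 lists with 153 genes, of which 110 were tested, 4 fell and none rose. The share that fell was 3.64%, against 2.99% of all tested genes, and the groups did not overlap for 22.7% of them, against 18.4%. The median log2 fold change was −0.06. The remaining 43 genes were under 1 TPM on average, and 9 were listed at 0 in every library, among them Nr1i2, the pregnane X receptor, and Cyp3a11, its classical liver target.

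The partners of the receptor were present without a call. Of 11 tested genes of its complex and partners none changed, with a median log2 fold change of 0.15. Arnt, the obligate dimer partner, was at 13.7 to 22.1 TPM in Onway and 13.7 to 17.0 TPM in Control. The smallest p-values belonged to Ncoa1, a coactivator (8.93 to 13.4 TPM in Onway, 6.82 to 8.91 TPM in Control, limma adjusted p = 0.30), and Arntl, a clock partner of the same protein family (7.67 to 16.7 TPM in Onway, 5.94 to 7.99 TPM in Control, adjusted p = 0.31). Of 9 tested further targets of the receptor none changed (median 0.10), and 9 were under the filter. Rel, an NF-kB subunit, was at 5.79 to 8.91 TPM in Onway and 4.49 to 4.59 TPM in Control (adjusted p = 0.32), and Fmo2, a flavin monooxygenase, at 0.37 to 0.62 TPM in Onway and 0.75 to 2.72 TPM in Control (adjusted p = 0.34).

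The 4 genes that fell came from separate lists. Srxn1, sulfiredoxin, was 1 of 22 tested NRF2 targets (list median −0.04), at 2.84, 3.44 and 3.32 TPM in Onway 1, Onway 2 and Onway 3, against 9.26, 7.35 and 9.62 TPM in Control 4, Control 5 and Control 6 (log2 fold change −1.21, SE 0.18, limma adjusted p = 0.012). Its call was lost when Control 6 (adjusted p = 0.070), Onway 1 (0.052) or the pair Control 4 and Onway 3 (0.082) was left out. Hmox1, haem oxygenase and another NRF2 target, was at 53.8 to 72.8 TPM in Onway and 57.0 to 146 TPM in Control (adjusted p = 0.67).

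Gstm2, a glutathione transferase abundant in human muscle, was 1 of 21 tested conjugation enzymes (median −0.33, with 17 negative). It was at 0.78, 0.59 and 0.79 TPM in Onway, against 6.74, 5.92 and 8.28 TPM in Control (log2 fold change −2.20, SE 0.20, limma adjusted p = 0.0012, and 0.0045 with no filter). Aldh1a2, which makes retinoic acid, was 1 of 26 tested phase I genes (median −0.11), at 0.97, 1.28 and 0.71 TPM in Onway, against 10.96, 4.31 and 8.18 TPM in Control (log2 fold change −2.08, SE 0.31, adjusted p = 0.012, and 0.034 with no filter). Like Cyp1b1, Gstm2 and Aldh1a2 averaged under 1 TPM in Onway and entered the fit through the Control group, where they were high. The call of Aldh1a2 was lost when Onway 2 (0.059), Onway 3 (0.067) or the pair Control 4 and Onway 3 (0.086) was left out. That of Gstm2 held in the 15 other fits that tested it.

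Vdr, the vitamin D receptor, known in osteoblasts, was 1 of 10 tested nuclear receptors and cofactors (median 0.21). Of these 10, 7 had positive log2 fold changes, but none was called higher. The groups did not overlap for 6 of the 10, against 18.4% of all tested genes. Vdr was at 0.87, 1.12 and 1.49 TPM in Onway, against 8.08, 3.21 and 4.78 TPM in Control (log2 fold change −1.50, SE 0.30, limma adjusted p = 0.044). It passed in 5 of 15 other fits, with adjusted p-values up to 0.16, the highest without Onway 2. Leaving out Control 4 (0.073), Control 6 (0.12), Onway 1 (0.11), Onway 3 (0.096) or both Control 4 and Onway 3 (0.099) also ended the call. Stromal, bone and muscle markers were lower in the same libraries, as given for Cyp1b1, and their part in these 4 genes was not tested. The further values in the authors' deposited means were 0.95 TPM for Onway and 1.82 TPM for Control for Gstm2, 1.29 and 2.13 TPM for Aldh1a2, 1.35 and 3.39 TPM for Vdr, and 5.51 and 7.14 TPM for Srxn1, Onway before Control in each.

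None of 14 tested drug transporters outside the 10 genes changed (median −0.05). The smallest p-values belonged to Slco2b1, an organic anion carrier, at 0.94, 1.54 and 1.20 TPM in Onway and 5.37, 2.48 and 3.87 TPM in Control (limma adjusted p = 0.086, and 0.037 without Control 5), and to Abcc3, an export pump for glucuronides, at 3.03, 3.85 and 2.99 TPM in Onway and 11.6, 6.81 and 5.80 TPM in Control (adjusted p = 0.10).

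**Figure D4:**
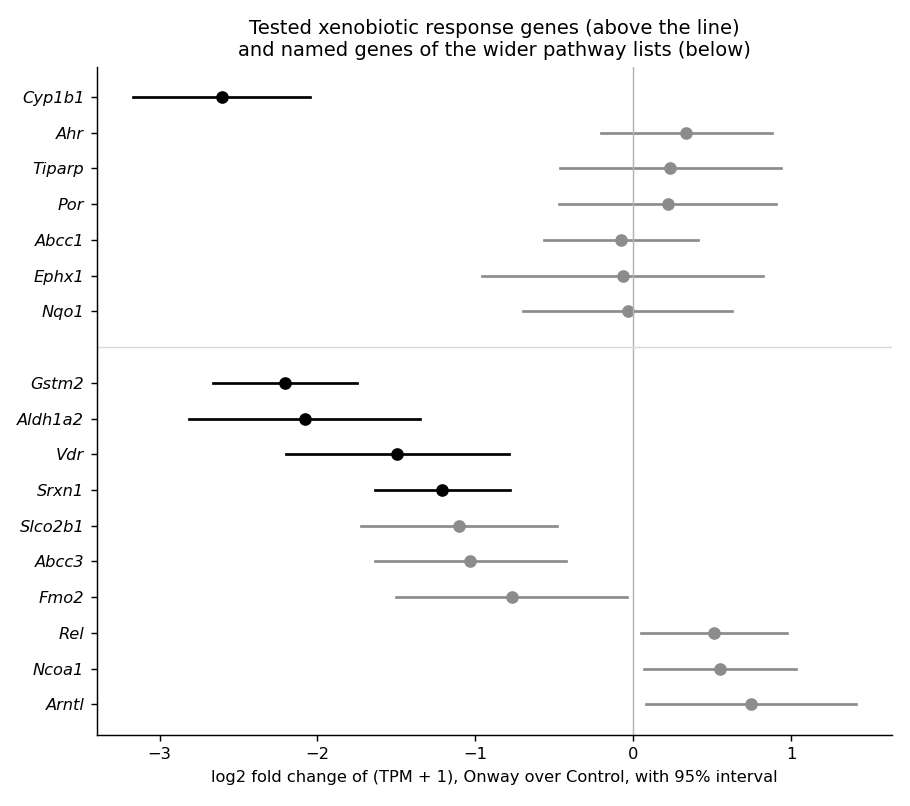
Log2 fold change of TPM + 1, Onway over Control (horizontal axis), with its 95% interval, for the 7 tested genes of the 10 (upper block) and the named genes of the wider lists (lower block). Genes past an adjusted p of 0.05 are black, and they are Cyp1b1, Gstm2, Aldh1a2, Vdr and Srxn1, all to the left of 0.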

How the data were processed

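Per the labels' protocols, a column kit gave the RNA and a SMARTer kit for mRNA the libraries, and the builds GRCm38 and mm10 are named per the submitters' processing notes. No aligner, quantifier or strand setting is named by the sources used here. The authors deposited TPM for 158850 transcripts, with group means of TPM beside 6 libraries. Read numbers and counting error are unknown, as TPM hides depth. The Onway columns carry another prefix than the titles and were matched by number.

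Transcripts were summed to genes. The 14192 genes averaging 1 TPM or more were tested as log2(TPM + 1) with limma 3.58.1 in R 4.3.3 (mean-variance trend, robust moderation, two-sided, Benjamini-Hochberg over all tested genes, threshold 0.05), on 6 libraries with no covariate. Single ratios used an exact permutation test over 20 assignments. A further value was taken as 4 times an authors' mean less the 3 libraries, and entered no test. Coordinates are from GENCODE M21 (GRCm38).

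The members, the 7 pathway lists and the 13 marker lists were chosen with earlier results of these data known. Of their genes, 1 erythroid marker was not found in the table. Besides the members, the text names per pathway list at most the 4 called genes with the smallest p, or else the 2 with the smallest p, and the 2 genes with the profile nearest to a called member. Markers of stroma, Fn1, Nkg7, Arnt, Hmox1, Abcb1b, Cyp1a2, Nr1i2 and Cyp3a11 are given as background and were picked with their values known. T and NK cell markers (132 to 149 TPM in Onway, 158 to 244 TPM in Control), B cell markers (311 to 941 and 219 to 370 TPM), erythroid markers (95090 to 341200 and 117200 to 268500 TPM) and immediate early genes (1128 to 2871 and 308 to 449 TPM) were also summed, Onway before Control in each. Nkg7, at 51.7 to 79.8 TPM in Onway and 104 to 188 TPM in Control, was the largest part of the T and NK sum. Of the 9 tested markers of that list 7 had positive log2 fold changes, and none was called.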

Additional observations from a re-analysis of the deposited data

Results flagged for a closer look

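In the group means of the authors' deposited table, 3 of the 10 genes left a further Onway value above all 3 Control libraries and the further Control value. The same held for 23.6% of all tested genes and for 2 of the 7 tested genes here, Ahr and Tiparp, so the count is near that background. For Ahr it was 1.20 TPM, against at most 0.87 TPM in a Control library and 0.51 TPM for the further Control value. For Ahrr it was 0.43 TPM, against at most 0.14 TPM and 0.10 TPM, and 0.39 TPM of it came from a transcript of 363 bases listed at 0 in all 6 libraries. For Tiparp it was 7.37 TPM, against at most 7.31 TPM and 5.19 TPM. Each is a single value derived from rounded means, with no error, and none was tested.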

How the results depend on the processing

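Across 16 alternative fits the call of Cyp1b1 held in the 15 that tested it (log2 fold change −4.18 to −2.42, adjusted p 0.00075 to 0.032), and no gene of the 10 rose in any. With a filter at 5 TPM Cyp1b1 was not tested, so 0 of the 10 were lower, and 183 genes fell and 20 rose. The 424 lower and 33 higher genes became 207 and 97 without both Control 4 and Onway 3, and 246 to 456 and 16 to 87 without 1 library. Median centring gave 59 higher genes and quantile normalisation 56. Of 109 values of the tested members 8 changed sign, none of them called (log2 fold changes). With 1 library left out Nqo1 ranged from −0.305 without Control 5 to 0.196 without Control 4 (0.116 without Onway 2), Por from −0.011 without Control 4 to 0.49 without Onway 3, Ephx1 from −0.405 without Onway 3 to 0.268 without Onway 1 (0.155 without Control 4), and Abcc1 from −0.170 without Control 5 to 0.087 without Onway 3. Without both Control 4 and Onway 3, Nqo1 was 0.13 and Abcc1 0.14. The difference in the log2 ratio of Cyp1b1 to stroma ranged from −2.52 to −1.57 over the libraries left out, and came to −0.42 without Fn1 (chosen after seeing the data), which held most stromal TPM in Onway. With a pseudocount of 1 TPM in that ratio the difference came to −0.49. The causes of the other shifts were not tested. No paired analysis was possible because the groups share no replicate number. Depth is unknown, which limits the values near or under 1 TPM, those of Ahr, Ahrr, Cyp1a1, Abcb1a and, in Onway, Cyp1b1, whose fold change moves with the pseudocount.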

Other observations

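Genes closest in profile to the members that did not pass were looked up after their values were seen. Over the 6 libraries Por was nearest to Snx18 and Mgam (mean absolute difference of the centred log2 profile 0.021 and 0.026), and Mgam was at 24.5, 26.2 and 13.5 TPM in Onway 1, Onway 2 and Onway 3, against 11.7, 20.9 and 20.1 TPM in Control 4, Control 5 and Control 6. Nqo1 was nearest to Rbm38 and Cenpv (0.065 and 0.068), and Rbm38 was at 209, 155 and 217 TPM in Onway, against 261, 126 and 177 TPM in Control. Ppox, an enzyme of haem synthesis, was picked from rank 6 of that list (0.078), past nearer genes not described here. It was at 73.2, 55.6 and 67.7 TPM in Onway and 87.7, 39.8 and 61.5 TPM in Control. Ahr was nearest to Rnf111 and Tle4 (0.021 and 0.022), and Rnf111 was at 20.1, 23.0 and 15.8 TPM in Onway, against 15.3, 15.3 and 16.4 TPM in Control (limma adjusted p = 0.55).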
